A study of Mus musculus with 7 samples.

Results

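The 10 matrix proteoglycan genes described here were taken by name from a table of 24354 gene symbols, and all 10 were found in it. They fall into 2 families of 5. Bgn (biglycan), Dcn (decorin), Lum (lumican), Fmod (fibromodulin) and Ogn (osteoglycin) encode small leucine-rich proteoglycans of connective tissue. Bcan (brevican), Ncan (neurocan), Vcan (versican), Acan (aggrecan) and Cspg5 (neuroglycan C) encode proteoglycans that carry chondroitin sulfate, and apart from Cspg5 they are lecticans. RNA sequencing had measured them in 7 mouse libraries, from cells taken at embryonic day 13.5 or derived from such cells. The 5 libraries of induced neural stem cells (iNSCs) came from fibroblasts infected with viral reprogramming factors and induced in neural stem cell medium. They are the DTA line, pBKSM, pOKSM, and clones 1 and 3 of mcBKSM. The control neural stem cells (cNSC) came from cerebral cortex of OG2/ROSA26 heterozygous female mice. The mouse embryonic fibroblasts (MEF) came from embryos without head and internal organs, with the genotype Oct4-CreER x Rosa26-loxSTOPlox-EYFP and the strain C57BL/6-Pou5f1 x 129X1/SvJ. pBKSM, pOKSM and both mcBKSM clones carry the same genotype and strain as the MEF library. The DTA line carries Oct4-CreER x Rosa26-loxSTOPlox-DTA, in which cells that activate Oct4 under induction express diphtheria toxin A, and its strain is given as unknown. From the labels, p was taken to stand for polycistronic vectors (several factors on 1 transcript) and mc for monocistronic vectors (1 factor each), with the letters O, B, K, S and M as Oct4, Brn4, Klf4, Sox2 and Myc. The vector of the DTA line is not given in the labels. Pou3f4, the Brn4 gene, was listed at 0 in both mcBKSM clones and in MEF and was 24.1 FPKM in DTA, 20.0 FPKM in pBKSM, 2.26 FPKM in pOKSM and 27.2 FPKM in cNSC, so the factor in the mcBKSM label could not be checked from its gene.

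Proteoglycans are core proteins with long sulfated sugar chains. Small leucine-rich proteoglycans bind collagen fibrils and growth factors in skin, tendon and other connective tissue, and fibroblasts are a main source of them. Lecticans bind hyaluronan at one end and tenascins at the other, with link proteins holding them to hyaluronan, and this lattice takes the place of fibrillar collagen in the brain. Versican is shared by mesenchyme and embryonic brain, brevican and neurocan are largely confined to nervous tissue, and aggrecan is the bulk proteoglycan of cartilage.

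Values are FPKM, fragments scaled to transcript length and library size, as the authors deposited them. RNA of 2 to 3 biological replicates was pooled for each library, so no value carries an error within a line, and only mcBKSM has more than 1 library. Depth, estimated from the lowest values, was 10900000 to 16000000 fragments per library. At these depths 3 fragments correspond to 0.0151 FPKM for the longest of the 10 transcripts in the deepest library and to 0.156 FPKM for the shortest in the shallowest library. Fibroblast and neural stem cell labels were checked with markers. The 8 fibroblast markers summed to 9.08 to 38.3 FPKM in the iNSC libraries, 89.9 FPKM in cNSC and 4449 FPKM in MEF. S100a4 alone supplied 81.1 FPKM of the cNSC sum and 3002 FPKM of the MEF sum, and was 0.226 to 7.35 FPKM in the iNSC libraries. Col1a1 was 0.152 to 0.962 FPKM in the iNSC libraries, 0.242 FPKM in cNSC and 440 FPKM in MEF. The 8 neural stem cell markers summed to 3561 to 7685 FPKM in the iNSC libraries, 6797 FPKM in cNSC and 2249 FPKM in MEF. Vim supplied 2239 FPKM of the MEF sum and was 1669 to 3126 FPKM in the iNSC libraries, so it does not part the classes. In the test against MEF described below, 5 of the 8 were called higher in iNSCs, and Sox1, Slc1a3 and Vim were not called. Nes was 132 to 275 FPKM in the iNSC libraries, 225 FPKM in cNSC and 0.103 FPKM in MEF. Sox2 was 87.6 to 390 FPKM in the iNSC libraries and 107 FPKM in cNSC, and it was listed at 0 in MEF. Sox2 is also a factor in the labels of pBKSM, pOKSM and mcBKSM. Transcripts of the vector and of the cell's own gene were not told apart, so Sox2 does not check the identity of these lines.

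Of the small leucine-rich genes, Bgn, Dcn and Ogn were abundant in fibroblasts and at 1.06 FPKM or less in neural cells, while Lum and Fmod were at or near 0 in fibroblasts too. Bgn, on chromosome X (73483602 to 73495933, plus strand, mm10), encodes biglycan, which binds collagen and growth factors. It was 0.132 FPKM in DTA, 0.121 FPKM in mcBKSM clone 1 and 0.0333 FPKM in clone 3, and was listed at 0 in pBKSM and pOKSM, against 0.0550 FPKM in cNSC and 331 FPKM in MEF. The MEF value stood alone, and 2 of the 6 other libraries lay above the value of 3 fragments. Dcn, on chromosome 10 (97479609 to 97518143, plus strand), encodes decorin, which coats collagen fibrils and limits their width. It was 0.0719 FPKM in DTA, 0.0980 FPKM in pOKSM and 0.0413 FPKM in mcBKSM clone 1, and was listed at 0 in pBKSM, mcBKSM clone 3 and cNSC, against 144 FPKM in MEF. None of these 6 libraries reached the value of 3 fragments. Ogn, on chromosome 13 (49608046 to 49624501, plus strand), encodes osteoglycin of bone, tendon and cornea. It was 1.06 FPKM in DTA, 0.218 FPKM in pBKSM, 0.268 FPKM in pOKSM and 0.0311 FPKM in mcBKSM clone 3, and was listed at 0 in clone 1, against 0.283 FPKM in cNSC and 51.0 FPKM in MEF. Here the MEF library was again the highest, and DTA was above all other neural libraries, with an estimated 43.4 fragments against 11.1 in cNSC. Ogn lies within Cenpp, a gene of the opposite strand whose exons do not overlap those of Ogn. Cenpp was 15.5 FPKM in DTA, 6.50 FPKM in cNSC and 10.9 FPKM in MEF. Whether the authors' counting used strand is not given in the sources used here, and a part of Cenpp transcripts in the low Ogn values was not tested.

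Lum, on chromosome 10 (97565128 to 97572703, plus strand), encodes lumican, a fibril regulator of cornea and skin. It was 0.0307 FPKM in DTA and 0.0418 FPKM in pOKSM and was listed at 0 in the other 5 libraries, MEF included. The gene starts 47.0 kb after the end of Dcn on the same strand, so the fibroblast library held one of these neighbours at 144 FPKM and listed the other at 0. Fmod, on chromosome 1 (134037254 to 134048277, plus strand), encodes fibromodulin of tendon and cartilage. It was 0.109 FPKM in DTA and 0.0320 FPKM in pBKSM, listed at 0 in pOKSM and both clones, and 0.0227 FPKM in cNSC and 0.0682 FPKM in MEF. Neither Lum nor Fmod reached 1 FPKM in any library, so neither was tested.

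The promoter windows of Bgn and Ogn are shown because both genes are high in MEF and low elsewhere. They give bases -200 to -1 from the RefSeq start (GRCm38.p6), on the strand of the gene. 7 of the 10 genes had an entry, and Dcn, Lum and Cspg5 did not. Both strands were searched for TATAAA (the TATA box), CAGCTG (an E-box), ACAANG (a core of SOX sites), TGANTCA (an AP-1 site) and GGGCGG (a GC box, bound by Sp and Klf factors). Capitals mark the matches, on either strand.
Bgn, chrX:73483401-73483600, plus strand: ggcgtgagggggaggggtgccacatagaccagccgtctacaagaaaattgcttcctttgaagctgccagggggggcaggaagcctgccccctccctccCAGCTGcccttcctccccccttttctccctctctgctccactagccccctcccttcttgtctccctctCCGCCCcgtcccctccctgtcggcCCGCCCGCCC
Ogn, chr13:49607815-49608014, plus strand: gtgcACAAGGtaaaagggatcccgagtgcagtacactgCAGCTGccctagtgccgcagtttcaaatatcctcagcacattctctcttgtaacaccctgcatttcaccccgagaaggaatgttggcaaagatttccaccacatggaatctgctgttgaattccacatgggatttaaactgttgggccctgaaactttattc
The Bgn window is 67.0% G and C and holds 3 GC boxes, of which the last pair overlaps, and an E-box at -102. The Ogn window is 47.0% G and C and holds an E-box at -162 and an ACAANG match at -196. Over 32851 windows of the same length in the table, GGGCGG occurred in 31.0%, ACAANG in 30.0%, CAGCTG in 10.9%, TATAAA in 9.96% and TGANTCA in 5.48%. The median G and C content of these windows was 53.0%.

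Bcan, Ncan and Cspg5 showed the reverse order, with levels in every neural library and none or nearly none in fibroblasts. Bcan, on chromosome 3 (87987531 to 88000230, minus strand), encodes brevican, a lectican of the perineuronal and perisynaptic matrix made by glial cells. It was 317 FPKM in DTA, 413 FPKM in pBKSM, 178 FPKM in pOKSM, and 86.8 FPKM and 125 FPKM in clones 1 and 3 of mcBKSM, against 101 FPKM in cNSC, and it was listed at 0 in MEF. The iNSC libraries lay on both sides of the cNSC value, with clone 1 below it and the other 4 libraries above it. Ncan, on chromosome 8 (70093085 to 70120873, minus strand), encodes neurocan, a lectican of developing brain. It was 102 FPKM in DTA, 63.2 FPKM in pBKSM, 17.6 FPKM in pOKSM, and 6.00 FPKM and 3.15 FPKM in clones 1 and 3 of mcBKSM, against 203 FPKM in cNSC, and it was listed at 0 in MEF. Every iNSC library lay below cNSC and above MEF. Cspg5, on chromosome 9 (110243783 to 110262576, plus strand), encodes a transmembrane proteoglycan of neurons and glia that bears an EGF-like domain. It was 62.8 FPKM in DTA, 79.8 FPKM in pBKSM, 21.8 FPKM in pOKSM, and 3.69 FPKM and 4.16 FPKM in clones 1 and 3 of mcBKSM, against 40.3 FPKM in cNSC and 0.101 FPKM in MEF. DTA and pBKSM lay above cNSC, and the other 3 iNSC libraries lay below it.

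Vcan was the one gene of the 10 that was high in every library. It lies on chromosome 13 (89655312 to 89742509, minus strand) and encodes versican, which is made as several splice forms that a gene-level FPKM does not part. It was 83.0 FPKM in DTA, 42.8 FPKM in pBKSM, 31.6 FPKM in pOKSM, and 26.5 FPKM and 24.5 FPKM in clones 1 and 3 of mcBKSM, against 23.1 FPKM in cNSC and 52.2 FPKM in MEF. DTA alone among the neural libraries was above MEF. Acan, on chromosome 7 (79053483 to 79115099, plus strand), encodes aggrecan. It was 0.0162 FPKM in DTA, 0.0239 FPKM in pBKSM and 0.136 FPKM in cNSC and was listed at 0 in the other 4 libraries, so it was not tested. The 6 chondrocyte markers summed to 28.2 to 63.4 FPKM in the iNSC libraries, 49.0 FPKM in cNSC and 31.6 FPKM in MEF. Sox9, which neural stem cells also express, was 13.7 to 26.1 FPKM in the iNSC libraries, 35.3 FPKM in cNSC and 25.3 FPKM in MEF. Col11a1 of the same list reached 1 FPKM in every library, with 13.6 FPKM in cNSC. Col11a1 was above Sox9 in DTA (44.8 against 16.7 FPKM) and pBKSM (15.7 against 13.7 FPKM) and below it elsewhere. The cartilage genes Col9a1, Col2a1, Comp and Matn1 reached at most 1.38, 1.83, 0.229 and 0 FPKM in any library.

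**Figure D1:**
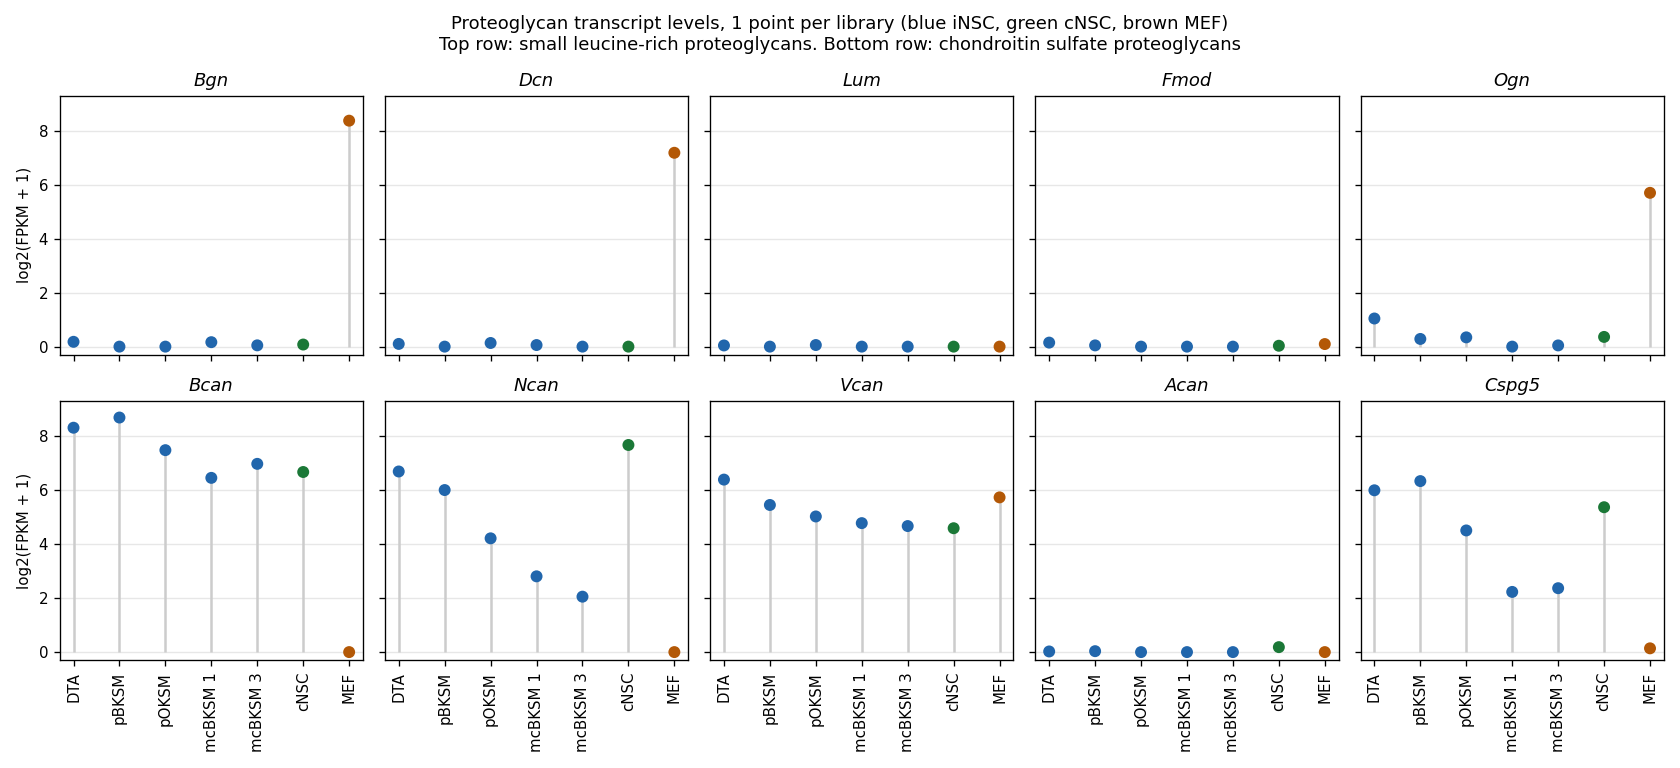
Levels of the 10 proteoglycan genes as log2(FPKM + 1), with 1 point per library (blue for the 5 iNSC libraries, green for cNSC, brown for MEF). Bgn, Dcn and Ogn are high in MEF, Bcan, Ncan and Cspg5 in the neural libraries, and Vcan in all 7.

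The promoter windows of Bcan and Ncan are shown as those of lecticans at 0 in MEF, with the same positions and marks as above.
Bcan, chr3:88000357-88000556, minus strand: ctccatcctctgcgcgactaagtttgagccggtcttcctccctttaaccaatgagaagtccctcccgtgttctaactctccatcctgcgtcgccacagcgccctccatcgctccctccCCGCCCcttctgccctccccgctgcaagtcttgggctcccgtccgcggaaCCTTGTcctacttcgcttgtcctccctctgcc
Ncan, chr8:70120845-70121044, minus strand: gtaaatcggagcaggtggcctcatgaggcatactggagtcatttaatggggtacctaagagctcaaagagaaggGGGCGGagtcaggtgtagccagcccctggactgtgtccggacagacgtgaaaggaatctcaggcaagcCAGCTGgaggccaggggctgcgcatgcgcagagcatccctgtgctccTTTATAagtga
The Bcan window is 62.0% G and C, with a GC box at -82 and an ACAANG match at -32. The Ncan window is 56.5% G and C, with a GC box at -126, an E-box at -58 and a TATAAA match, on the other strand, at -11, and its end reaches into the first exon that GENCODE gives. An E-box of these letters thus occurs in Bgn, Ogn and Ncan, genes of both patterns, and TGANTCA occurs in none of the 4 windows shown.

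The iNSC libraries were compared with MEF to ask how far the fibroblast matrix genes had been lost and the neural ones gained. Values were compared as log2(FPKM + 1), a scale on which low genes appear to change less than they do, and tested with limma over 13042 genes that reached 1 FPKM in at least 1 library. At an adjusted p under 0.05 limma called 16.3% of these genes, with 6.77% higher and 9.55% lower in iNSCs. Of the 10 proteoglycan genes 7 passed the filter and 4 were called. Bgn and Dcn passed the filter through MEF alone, and Bcan, Ncan and Cspg5 through neural libraries alone. A gap from MEF was thus built in for these genes, and nothing is read from the count or from their p-values. Bgn fell by 8.30 ± 0.17 (SE, limma adjusted p = 1.86e-05), to 0.0571 ± 0.0646 FPKM (SD, n = 5 libraries) in iNSCs, against 331 FPKM in MEF. Dcn fell by 7.13 ± 0.15 (limma adjusted p = 1.94e-05). Ogn fell by 5.36 ± 0.41 (limma adjusted p = 0.000875). Bcan rose by 7.58 ± 0.86 (limma adjusted p = 0.00385), to 224 ± 137 FPKM in iNSCs, and was listed at 0 in MEF. Each of the 4 differences had the same direction in 5 of 5 iNSC libraries.

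Ncan and Cspg5 were also higher in 5 of 5 iNSC libraries than in MEF but did not pass the test. Ncan averaged 38.5 ± 43.2 FPKM in iNSCs, a difference of 4.36 ± 1.85 (95% interval -0.25 to 8.96, limma adjusted p = 0.172). Cspg5 averaged 34.5 ± 35.0 FPKM in iNSCs and was 0.101 FPKM in MEF, a difference of 4.15 ± 1.80 (95% interval -0.34 to 8.64, limma adjusted p = 0.181). The SDs of both genes were about as large as their means. Vcan averaged 41.7 ± 24.2 FPKM in iNSCs and was 52.2 FPKM in MEF, a difference of -0.47 ± 0.66 (95% interval -2.10 to 1.17, limma adjusted p = 0.651). The single MEF library was assumed to vary like the iNSC lines, which are different lines and not repeats of one. In bulk libraries, fewer cells of a type and less RNA per cell cannot be told apart. Of 6 neuron markers 1 was called higher (Map2), and the 6 summed to 123 to 267 FPKM in iNSCs, 132 FPKM in cNSC and 13.7 FPKM in MEF. Of 6 astrocyte markers 1 was called higher (Aldoc), and the 6 summed to 152 to 533 FPKM in iNSCs, 573 FPKM in cNSC and 50.3 FPKM in MEF. The part of such cells in the result was not tested.

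Against cNSC, limma called none of the 7 tested genes, with 0 at an unadjusted p under 0.05 as well, and 1.17% of all tested genes (0.207% higher and 0.958% lower). For Bgn the difference was 0.00 ± 0.17 (95% interval -0.42 to 0.43), for Dcn 0.06 ± 0.15 (-0.32 to 0.43) and for Ogn -0.02 ± 0.41 (-1.04 to 1.01). For the 4 tested chondroitin sulfate proteoglycan genes the intervals were wider. Bcan differed by 0.91 ± 0.86 (-1.24 to 3.06, limma adjusted p = 0.648). Ncan differed by -3.32 ± 1.85 (-7.93 to 1.29, limma adjusted p = 0.483), Vcan by 0.67 ± 0.66 (-0.96 to 2.31) and Cspg5 by -1.08 ± 1.80 (-5.57 to 3.41). A p that misses the threshold does not show equal levels. The source mice, as labelled, differed in genotype between cNSC (OG2/ROSA26 heterozygous females) and the iNSC libraries, and the strain of DTA is unknown. Effects of genotype, strain or sex cannot be told apart from that of conversion.

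**Figure D2:**
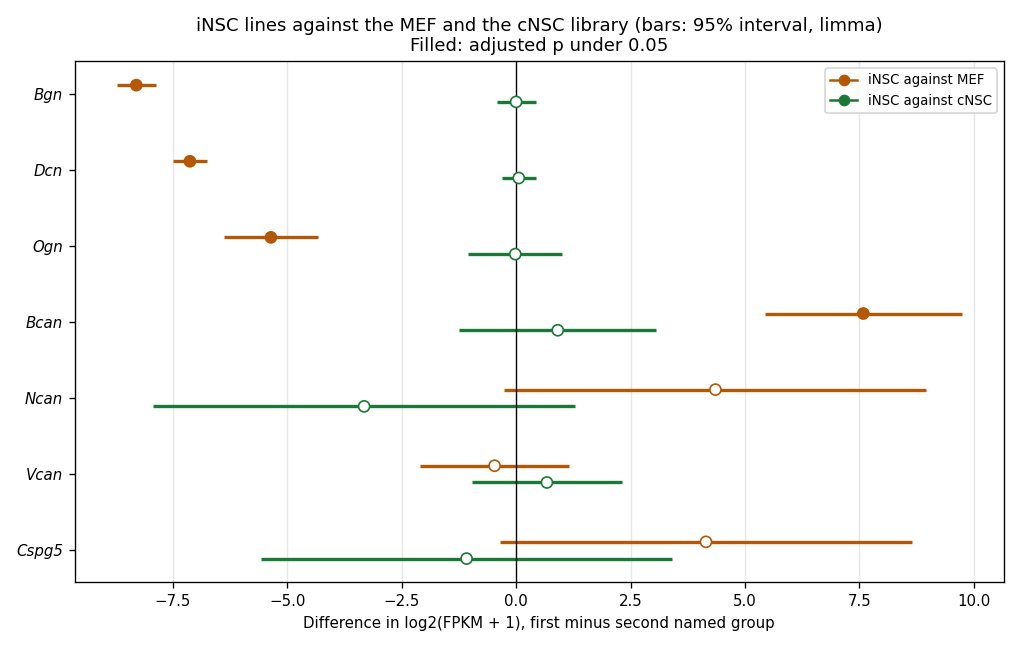
Differences in log2(FPKM + 1) of the 7 tested proteoglycan genes between iNSC libraries and MEF (brown) and between iNSC libraries and cNSC (green), with 95% intervals from limma and filled points for an adjusted p under 0.05. Bgn, Dcn and Ogn lie far below 0 against MEF and close to 0 against cNSC, while Ncan and Cspg5 have wide intervals on both sides.

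cNSC and MEF were set side by side without a test, since each has 1 library. Of the 7 genes that reached 1 FPKM, 6 were 4-fold or more apart between cNSC and MEF, where 13.0% of 12219 genes were (7.23% higher and 5.79% lower in cNSC). Each of these 6 genes reached 1 FPKM in cNSC or in MEF but not in both, which favours a wide gap. Nothing is therefore read from the count. Ncan gave a difference, cNSC minus MEF, of 7.68, Bcan of 6.67 and Cspg5 of 5.23, while Bgn gave -8.30, Dcn -7.18 and Ogn -5.34. Vcan gave -1.14.

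FPKM is per length, so levels of different genes can be set against each other. Summed over the family, small leucine-rich transcripts were 1.40 FPKM in DTA, 0.0644 to 0.408 FPKM in the other 4 iNSC libraries, 0.361 FPKM in cNSC and 526 FPKM in MEF. Chondroitin sulfate proteoglycan transcripts summed to 566 FPKM in DTA, 599 FPKM in pBKSM, 249 FPKM in pOKSM, and 123 FPKM and 157 FPKM in clones 1 and 3 of mcBKSM, against 368 FPKM in cNSC and 52.3 FPKM in MEF. Of both families together, the chondroitin sulfate genes made up 99.8% in DTA and more than that in the other 5 neural libraries and 9.05% in MEF. In MEF, Vcan supplied 99.8% of the chondroitin sulfate sum.

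The neural libraries differed in which lectican led. Bcan supplied 56.1% of the chondroitin sulfate sum in DTA, 68.9% in pBKSM, 71.5% in pOKSM, and 70.6% and 79.7% in clones 1 and 3 of mcBKSM, against 27.5% in cNSC. Ncan supplied 18.1% in DTA, 10.6% in pBKSM, 7.06% in pOKSM, and 4.88% and 2.01% in clones 1 and 3 of mcBKSM, against 55.3% in cNSC. The ratio of Ncan to Bcan was 0.323 in DTA, 0.153 in pBKSM, 0.0988 in pOKSM, and 0.0691 and 0.0252 in clones 1 and 3 of mcBKSM, against 2.01 in cNSC. Ncan was thus the leading gene in cNSC, and Bcan was the leading gene in each of the 5 iNSC libraries. This order rests on 1 cNSC library, which differs in labelled genotype from all iNSC libraries, and was not tested.

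**Figure D3:**
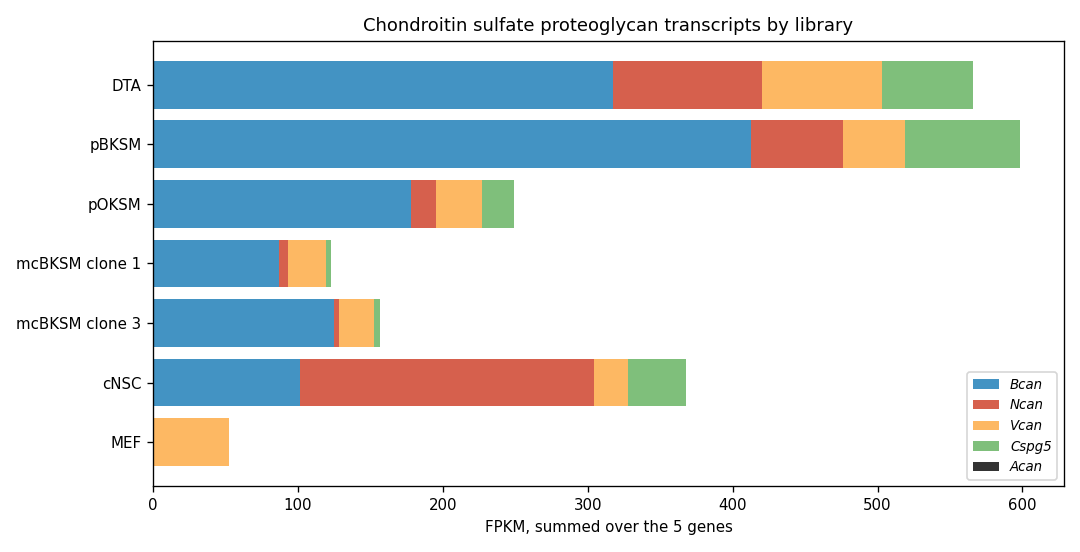
Summed FPKM of the 5 chondroitin sulfate proteoglycan genes in each library, with 1 coloured segment per gene. The cNSC bar is mostly Ncan (203 of 368 FPKM), the iNSC bars are mostly Bcan, and the MEF bar is almost all Vcan (52.2 of 52.3 FPKM).

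Among the iNSC lines the leucine-rich genes stayed low, and the chondroitin sulfate proteoglycan genes other than Acan spread widely. The distance between both mcBKSM clones, on the log2(FPKM + 1) scale, was 0.52 for Bcan, 0.75 for Ncan, 0.11 for Vcan and 0.14 for Cspg5, and it is the only spread available within a group. In descending order Cspg5 ran pBKSM, DTA, cNSC, pOKSM, clone 3 and clone 1, and Ncan ran cNSC, DTA, pBKSM, pOKSM, clone 1 and clone 3. The clones are neighbours at the low end of both orders, and every step above them rests on single libraries.

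pBKSM was compared with the mcBKSM clones to ask how lines made with a polycistronic and a monocistronic vector differ, with all 7 libraries in 6 label groups and 1 residual degree of freedom. The lines also differed in factor genes. Myc was 78.9 FPKM in pBKSM, against 450 and 485 FPKM in the clones and 339 FPKM in pOKSM. Sox2 was 87.6 FPKM in pBKSM, against 342 and 390 FPKM in the clones and 277 FPKM in pOKSM. The part of these levels in the differences below was not tested. Cspg5 rose by 4.04 ± 0.14 (limma adjusted p = 0.0367), with 79.8 FPKM in pBKSM against 3.69 and 4.16 FPKM in the clones. It was the only one of the 7 tested proteoglycan genes called, where limma called 5.82% of all genes (3.74% higher and 2.08% lower). Ncan was 63.2 FPKM in pBKSM against 6.00 and 3.15 FPKM in the clones, a difference of 3.57 ± 0.44 that did not pass (limma adjusted p = 0.0709). Bcan was 413 FPKM against 86.8 and 124.9 FPKM, a difference of 1.98 ± 0.31 (limma adjusted p = 0.0832). Vcan differed by 0.73 ± 0.10 (limma adjusted p = 0.0752). All 4 were higher in pBKSM than in both clones. The Cspg5 call ended in limma without a mean-variance trend (adjusted p = 0.0595, range over 6 tested alternatives 0.0145 to 0.0595). Fitted on the 5 iNSC libraries alone, Bcan and Ncan were called as well (limma adjusted p = 0.0498 and 0.0399).

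DTA is a single library of another genotype than the clones, with its strain unknown and its vector not given, and these effects cannot be told apart. In DTA against the clones 3 of the 7 tested proteoglycan genes were called. Cspg5 rose by 3.70 ± 0.14 (limma adjusted p = 0.0309), Vcan by 1.67 ± 0.10 (0.0394) and Ogn by 1.02 ± 0.06 (0.0407), where limma called 11.2% of all genes (6.76% higher and 4.40% lower). Vcan was 83.0 FPKM in DTA against 26.5 and 24.5 FPKM in the clones, and Ogn was 1.06 FPKM in DTA against 0 and 0.0311 FPKM. Ncan was 102 FPKM in DTA against 6.00 and 3.15 FPKM, a difference of 4.26 ± 0.44 that did not pass (limma adjusted p = 0.0526) but did with a filter of 5 FPKM (0.0302) and on the 5 iNSC libraries alone (0.0297), and Bcan differed by 1.60 ± 0.31 (0.0839). All 3 calls ended in limma without the trend (adjusted p of 0.0524 for Cspg5, 0.0532 for Vcan and 0.0549 for Ogn). The ranges over 6 tested alternatives were 0.0132 to 0.0524, 0.0217 to 0.0532 and 0.0201 to 0.0549 in the same order. Without a filter the calls of Vcan (0.0521) and Ogn (0.0522) ended, and quantile normalization ended that of Ogn (0.0518).

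Some markers of connective cell types moved with Vcan and Ogn, and others went the other way. The 8 fibroblast markers summed to 10.4 FPKM in DTA, against 28.7 and 38.3 FPKM in the clones, with 0 called higher and 1 lower. The 6 meningeal and perivascular markers summed to 5.75 FPKM in DTA, against 1.14 and 1.04 FPKM in the clones, almost all of it Foxc1 (5.36 FPKM in DTA, against 1.14 and 0.966 FPKM), the 1 called higher of 2 tested. The 6 chondrocyte markers summed to 63.4 FPKM in DTA, against 28.2 and 30.0 FPKM in the clones. Of 4 tested, 2 were called higher, Col11a1 (44.8 FPKM in DTA, against at most 3.68 FPKM in the clones) and Col9a1. Sox9 and Comp of that list were lower in DTA. Sox9 was 16.7 FPKM in DTA against 24.3 and 26.1 FPKM in the clones, and Comp was 0.0776 FPKM against 0.0892 and 0.229 FPKM. The part of such cells in the result was not tested.

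The comparisons of pBKSM and DTA share the clones, so their values are not independent. pBKSM against pOKSM gave 0 called genes in all, with 0% called, 3269 genes at an unadjusted p under 0.05 and a smallest limma adjusted p of 0.102. Of the proteoglycan genes, Cspg5 had an unadjusted p under 0.05. It was 79.8 FPKM in pBKSM and 21.8 FPKM in pOKSM, a difference of 1.83 ± 0.16 (95% interval 1.23 to 2.43, limma adjusted p = 0.121). Bcan differed by 1.21 ± 0.35 (-0.15 to 2.57) and Ncan by 1.79 ± 0.51 (-0.18 to 3.76). pBKSM and pOKSM have 1 library each. These errors and intervals come from the distance between both mcBKSM clones and from the variance trend that limma fits over all tested genes. They hold no measure of the spread within either line.

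Some glial markers moved with these genes, and others went the other way. The 6 astrocyte markers (Gfap, Aqp4, Aldh1l1, S100b, Aldoc and Gja1) summed to 467 FPKM in DTA and 533 FPKM in pBKSM, against 182 FPKM in pOKSM and 160 and 152 FPKM in the clones. Most of each sum was Aldoc, with 411 FPKM in DTA, 431 FPKM in pBKSM, 127 FPKM in pOKSM and 106 and 102 FPKM in clones 1 and 3. Limma called 5 of the 6 higher and 1 lower in DTA than in the clones, and 3 higher in pBKSM. Gfap, the defining filament gene, was 24.5 FPKM in DTA, 1.70 FPKM in pBKSM, 0.538 FPKM in pOKSM and 0.0526 FPKM in clone 1, was listed at 0 in clone 3, and was 374 FPKM in cNSC. Gja1 was the astrocyte marker that was lower in DTA, and 2 of 6 neuron markers (Rbfox3 and Stmn2) were lower than in the clones in both DTA and pBKSM. The 6 oligodendrocyte precursor markers summed to 1489 FPKM in DTA and 1463 FPKM in pBKSM, against 479 FPKM in pOKSM and 184 and 148 FPKM in the clones, most of it from Olig1 and Olig2, of which Olig2 is also on the neural stem cell list. Other genes of that list went the other way: Pdgfra was 0.902 FPKM in DTA and 1.06 FPKM in pBKSM, against 8.07 and 8.12 FPKM in the clones, and was called lower in both, and Cspg4 was 0.0222 FPKM in DTA and 0.0764 FPKM in pBKSM, against 0.535 and 0.459 FPKM in the clones. The defining markers Sox10 and Gpr17 stayed at or under 0.145 and 0.12 FPKM in every library. The part of glial cells in these differences was not tested.

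**Figure D4:**
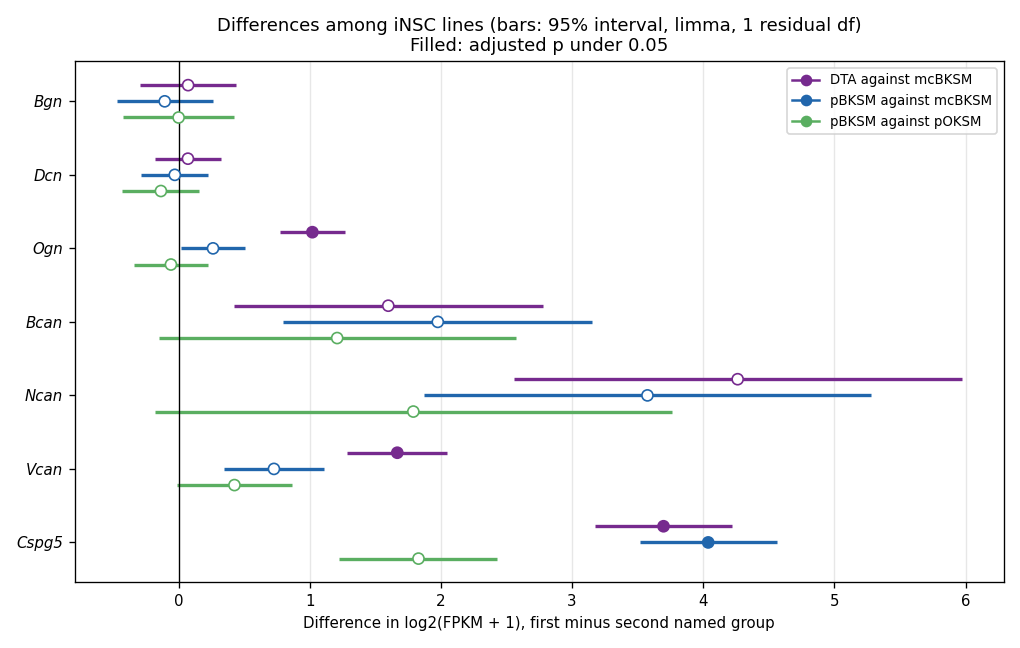
Differences in log2(FPKM + 1) of the 7 tested proteoglycan genes for DTA against mcBKSM (purple), pBKSM against mcBKSM (blue) and pBKSM against pOKSM (green), with 95% intervals from limma and filled points for an adjusted p under 0.05. Cspg5 and Ncan have the widest separation from 0, and the intervals of Bgn and Dcn include 0.

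The genes that act with the proteoglycans were described from 6 lists with 79 genes, of which 58 were tested. In iNSCs against MEF, 5 rose and 8 fell, where 6.77% and 9.55% of all genes did. Of 12 other small leucine-rich genes 4 were tested, and 1 fell, with a median difference of -0.58 beside 0.03 over all genes tested. It was Podnl1, a podocan relative, listed at 0 in all 6 neural libraries and 28.5 FPKM in MEF (difference -4.88), which passed the filter through MEF alone, so a gap was built in. Of 12 other chondroitin sulfate proteoglycans and relatives 8 were tested, 2 rose and 1 fell (median 1.09). Ptprz1, a receptor phosphatase of neural progenitors whose ectodomain is the proteoglycan phosphacan, rose by 6.58 ± 0.79 (limma adjusted p = 0.00464), with 182 FPKM in DTA, 165 in pBKSM, 87.7 in pOKSM and 50.8 and 56.5 in the clones, and was listed at 0 in MEF. Smoc1, a secreted calcium-binding matrix protein, rose by 5.74 ± 0.74 (0.00609) and was also listed at 0 in MEF. Ptprz1 and Smoc1 passed the filter through neural libraries alone, so a gap was built in for both. Cspg4, the NG2 proteoglycan of pericytes and oligodendrocyte precursors, fell by 2.69 ± 0.60 (0.0367), to 0.0222 to 2.06 FPKM in the iNSC libraries, against 8.64 FPKM in MEF. Cspg4 and Bcan, both chondroitin sulfate proteoglycans, thus moved in opposite directions.

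Of 10 lectican partners 5 were tested and limma called 0 in iNSCs against MEF (median -1.16). Cd44, a hyaluronan receptor, was 10.8 FPKM in DTA, 10.7 FPKM in pBKSM, 21.4 FPKM in pOKSM and 33.0 and 26.6 FPKM in the clones, against 131 FPKM in cNSC and 121 FPKM in MEF, a difference from MEF of -2.63 ± 0.66 (limma adjusted p = 0.0512). Has2, a hyaluronan synthase, differed by -1.18 ± 0.68 (0.289). Each lectican gene has a link protein gene beside it in the mouse genome. Hapln2, 21.5 kb from Bcan, reached at most 0.0356 FPKM. Hapln1, 43.7 kb from Vcan, reached 0.0119 FPKM in DTA and was listed at 0 elsewhere. Hapln4, 2.22 kb from Ncan, was 1.88 FPKM in DTA, 1.54 FPKM in pBKSM, 3.36 FPKM in pOKSM and 3.01 and 4.07 FPKM in the clones, against 6.39 FPKM in cNSC and 7.16 FPKM in MEF. Hapln3, 3 bases from Acan, was 0 to 0.509 FPKM, and Acan was low in every library too. Hapln4 was thus present where Ncan was listed at 0, Hapln2 and Hapln1 were nearly absent where Bcan and Vcan were high, and Hapln3 and Acan were both under 1 FPKM throughout. Tnc, a tenascin gene, was 185 FPKM in DTA against 15.0 and 11.2 FPKM in the clones (difference 3.73 ± 0.24, limma adjusted p = 0.0407). It was 405 FPKM in cNSC and 50.6 FPKM in MEF. Tnr, another tenascin gene of the list, was 0.577 to 1.99 FPKM in the iNSC libraries and 0.432 FPKM in cNSC, and it was listed at 0 in MEF.

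Of 21 genes of chondroitin and dermatan sulfate synthesis 20 were tested, 1 rose and 3 fell in iNSCs against MEF (median -0.56). The sulfotransferases Chst14, which acts on dermatan sulfate, and Chst12 fell by 1.84 ± 0.36 and 1.49 ± 0.29 (limma adjusted p = 0.0249 each), and the polymerizing factor Chpf2 fell by 1.21 ± 0.23 (0.0211). The gene that rose, named after its value was seen, was the synthase Chsy1 (0.74 ± 0.16, adjusted p = 0.0315). Of 12 genes of cleavage and breakdown 10 were tested and 2 fell (median -0.24). They were Arsb, a lysosomal sulfatase (-2.46 ± 0.35, limma adjusted p = 0.00828), and Adamts5, an aggrecanase (-1.68 ± 0.24, 0.00899). Against cNSC limma called 0 of the 58 genes, with 12 at an unadjusted p under 0.05. In DTA against the clones 10 of the 58 were higher and 3 lower, where 6.76% and 4.40% of all genes were, including Xylt1, which starts the sugar chain, at 29.1 FPKM in DTA against 1.55 and 1.17 FPKM in the clones (3.68 ± 0.19, limma adjusted p = 0.036). In pBKSM against the clones 6 were higher and 1 lower, where 3.74% and 2.08% of all genes were, including Chsy3 (1.88 ± 0.08) and Chpf (1.63 ± 0.09).

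**Figure D5:**
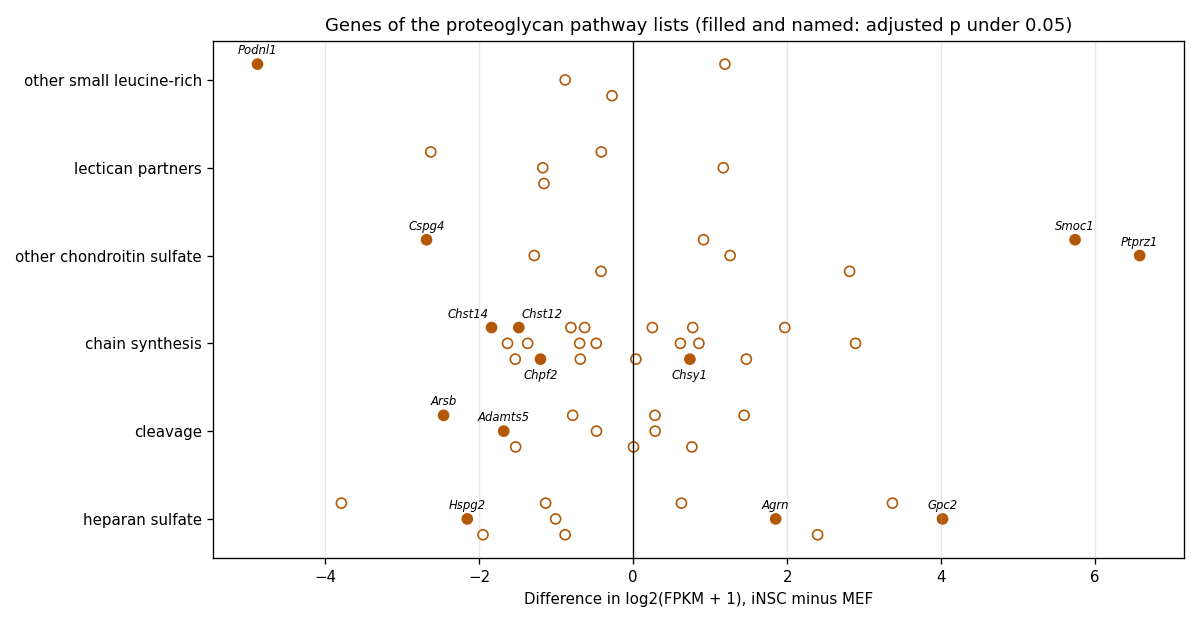
Differences in log2(FPKM + 1), iNSC minus MEF, for the tested genes of 6 proteoglycan pathway lists, with 1 point per gene and filled, named points for an adjusted p under 0.05. Ptprz1 (6.58) and Smoc1 (5.74) lie farthest to the right and Podnl1 (-4.88) farthest to the left.

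To find genes with a like pattern, the Euclidean distance in log2(FPKM + 1) over the 7 libraries was taken among 10732 genes that reached 5 FPKM. Nearest to Bgn were Il1rl1 (distance 0.26, an interleukin receptor gene), Col1a2 (0.51, a chain of type I collagen) and Anxa3 (0.67, an annexin gene), all at 237 FPKM or more in MEF and at most 0.518 FPKM elsewhere. Nearest to Bcan were Aldoc (1.06, a glycolytic enzyme gene), Nes (1.63, the intermediate filament nestin) and Olig2 (1.87, a progenitor transcription factor). Nearest to Vcan were Etv4 (0.76, an ETS factor gene), Bcl7c (0.93) and Lpcat1 (1.06).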

How the data were processed

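RNA sequencing of 7 libraries was deposited as 1 table of FPKM values per gene symbol. The submitters' processing notes name build mm10, R 3.3.2, Cuffnorm, Cufflinks 2.2.1 and STAR 2.5.2b; for tool roles, annotation and strand setting the sources used here give nothing. The FPKM values deposited by the authors are scaled to transcript length and library size, so they hold no measure of total RNA per cell. With no counts in the table, library depth comes from the lowest values of genes with 1 transcript in GENCODE M21, taken as 1 fragment, and fragment numbers and limits cover counting error only.

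log2(FPKM + 1) was tested in R 4.3.3 with limma 3.58.1 and its mean-variance trend, with Benjamini-Hochberg adjustment over all genes at 1 FPKM or more in at least 1 library. Class comparisons used 3 classes (4 residual degrees of freedom from 5 iNSC libraries) and line comparisons 6 label groups (1 residual degree of freedom, that between the clones). Limma moved the variance of each gene toward the trend over all tested genes, so errors, intervals and calls also draw on the other genes. Groups with 1 library were taken to vary like the replicated one, and nothing says that the clones came from separate cultures, so p-values measure the spread between these libraries. The tests were also run on simulated tables with known changes, in which every library was drawn with the spread of the iNSC libraries or of the clones. Such tables share the assumption about groups with 1 library, so they cannot check it, and nothing is read from them. All proteoglycan genes are named; of each pathway list up to 3 called genes with the largest difference are named, or 2 as values where none was called, with link protein or leucine-rich genes within 200 kb. The members and lists were chosen with earlier results of these data known. Alternatives were the pseudocount, the filter, quantile normalization, the trend, the libraries in the fit and leaving out each library. Positions are from GENCODE M21 (GRCm38) and promoter windows from RefSeq. Cemip2 was not matched by symbol.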

Additional observations from a re-analysis of the deposited data

Results flagged for a closer look

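Ogn in the DTA library was far from the other iNSC libraries. It was 1.06 FPKM in DTA, against 0 to 0.268 FPKM in the other 4, and its gap to the nearest made up 0.747 of the whole range, above the critical value of 0.71 for 5 libraries. About 1 in 20 groups is marked this way by chance, and 7 genes were looked at. An estimated 43.4 fragments lay behind the DTA value, and Cenpp, the gene on the opposite strand around Ogn, was 15.5 FPKM in DTA and 23.3 FPKM in pBKSM, where Ogn was 0.218 FPKM.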

How the results depend on the processing

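Of 300 values of the 7 proteoglycan genes tested in the main fits, each under the alternatives, 272 had a test. Of these, 0 reversed a call, 7 lost and 5 gained one, and 260 stayed on their side of the threshold. The other 28, without either mcBKSM clone, had none. In iNSCs against MEF the same number of genes, 4, was called under all 11 alternatives, leaving out each library included (4 to 4). Against cNSC the count was 0 throughout (0 to 0 without each library) except without a filter, where it was 1: Acan, 0.136 FPKM in cNSC and at most 0.0239 FPKM in iNSCs. The count in pBKSM against mcBKSM was 1, with 2 under a filter of 5 FPKM, 0 in limma without the trend and 3 on the 5 iNSC libraries alone. In DTA against mcBKSM it was 3, with 0 in limma without the trend, 2 without a filter or with quantile normalization, and 4 with a filter of 5 FPKM or on the 5 iNSC libraries. Without a filter the 2 were Cspg5 and Fmod. Fmod was 0.109 FPKM in DTA, an estimated 5.4 fragments, and was listed at 0 in both clones. Over all genes, the iNSC against MEF count of 2128 was 1147 without pOKSM, 1417 without mcBKSM clone 3 and 3193 without DTA. The count against cNSC of 152 ranged from 50 (without pOKSM) to 883 (without DTA), with 59 and 70 without clone 3 and clone 1, 74 with a pseudocount of 0.1 or a filter of 5 FPKM, 83 with both classes alone and 618 without a filter. pBKSM against mcBKSM (759) gave 1454 with a filter of 5 FPKM, 1849 on the iNSC libraries and 0 without the trend. DTA against mcBKSM (1455) gave 2451, 2894 and 0 in the same order. pBKSM against pOKSM (0) gave 7 with a pseudocount of 0.1, 374 without a filter and 90 with a filter of 5 FPKM. The cause was not tested. Without either clone no residual degrees of freedom were left in the comparisons of lines. No paired analysis was possible because only mcBKSM carries replicate numbers. Depth limits values under 0.156 FPKM, the highest value of 3 fragments.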

Other observations

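Of 12 heparan sulfate proteoglycan genes 11 were tested, and in iNSCs against MEF 2 rose and 1 fell, where 6.77% and 9.55% of all genes did (median difference -0.89). Gpc2, a glypican of developing neurons, rose by 4.02 ± 0.29 (limma adjusted p = 0.000698), with 12.4 to 20.6 FPKM in the iNSC libraries and 7.66 FPKM in cNSC, and it was listed at 0 in MEF. Gpc2 passed the filter through neural libraries alone, so a gap was built in. Agrn, encoding agrin, rose by 1.85 ± 0.15 (0.000958), to 75.7 to 92.3 FPKM in the iNSC libraries, against 71.6 FPKM in cNSC and 22.8 FPKM in MEF. Hspg2, encoding perlecan of basement membranes, fell by 2.16 ± 0.28 (0.00609), to 9.50 to 15.3 FPKM in the iNSC libraries, against 24.6 FPKM in cNSC and 53.4 FPKM in MEF.

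Leucine-rich genes beside the proteoglycan genes were low in most libraries. Ecm2, 75.3 kb from Ogn on chromosome 13, was 0.477 FPKM in DTA, 6.81 FPKM in pBKSM, 2.78 FPKM in pOKSM and 0.528 and 0.431 FPKM in the clones, against 0.516 FPKM in cNSC and 0.0892 FPKM in MEF, and it was higher in pBKSM than in the clones (2.40 ± 0.08, limma adjusted p = 0.0367). Omd and Aspn, 15.2 and 40.5 kb from Ogn, reached at most 0.348 and 0.0795 FPKM. Kera and Epyc, 88.7 and 126 kb from Dcn and 34.2 and 71.4 kb from Lum, reached at most 0 and 0.0394 FPKM, close to the levels of Lum. Optc, 129 kb from Fmod, was 0.351 to 0.849 FPKM in the iNSC libraries, 0.336 FPKM in cNSC and 0.301 FPKM in MEF, and Prelp, 116 kb from Fmod, was 1.71 to 3.74 FPKM in the iNSC libraries, 1.17 FPKM in cNSC and 3.42 FPKM in MEF. Markers of macrophages and endothelium summed to at most 1.43 and 1.12 FPKM in any library.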
